A study of Mus musculus with 12 samples.

Results

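Armh4 and Slc35f4 are neighbouring genes on mouse chromosome 14, and both read differently in RasGRF2 knockout and wild-type brain. They were examined with 4 further genes, Naa30, Ap5m1, Actr10 and Psma3, that had been listed as their neighbours on that chromosome. The annotation bears the list out only in part. In the RefSeq gene table of assembly GRCm38.p6, Ap5m1, Naa30, Slc35f4 and Armh4 follow each other on chromosome 14 in this order, with ccdc198 between Naa30 and Slc35f4, whereas Actr10 and Psma3 lie side by side on chromosome 12. The platform annotation lists no probe set for Actr10, so 5 of the 6 genes were measured, out of 19938 genes with a single symbol. Armh4 and Slc35f4 had been selected on their values in these arrays, Armh4 for knockout differences of opposite sign in the tissues and Slc35f4 for a difference in hippocampus, so their knockout differences are given as a description without a test. The other genes were picked for their supposed position.

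Gene expression had been measured in adult mice labelled C57BL/6, which were either wild type or lacked the exchange factor RasGRF2, labelled GRF2 KO. Hippocampus and olfactory bulb were taken from 3 animals of each genotype, which gives 4 groups of 3 and 12 arrays of total RNA, each with its own 1-colour array. The mice lived in a conventional facility and had met common pathogens, and no treatment was given. The sources used here do not give the deleted exons, the cells that lack the gene or the number of backcrosses. The deposited values are log2 intensities per probe set after robust multi-array averaging (RMA), so a difference of 1 is a 2-fold difference, and the values of different probe sets cannot be ranked against each other. The 3 arrays per group limit the precision.

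ARMH4 is a membrane protein with an armadillo-like helical domain. Work in cultured cells has described it as a partner of Rictor, a subunit of the kinase complex mTORC2, and of the cytokine receptor subunit gp130. Slc35f4 belongs to the SLC35F family of multi-pass membrane proteins, relatives of the nucleotide sugar transporters, and its substrate is not established. NAA30 is the catalytic subunit of NatC, an enzyme that acetylates the first residue of proteins as they are made. AP5M1 is the medium subunit of AP-5, an adaptor complex of late endosomes, PSMA3 an alpha subunit of the 20S proteasome core, and ACTR10 an actin-related subunit of dynactin, the activator of the dynein motor.

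The promoters of Armh4 and Slc35f4 are shown because these genes carry the differences described below. Each sequence runs 5′ to 3′ on the strand of its gene, from 250 bases before to 50 bases after the start that RefSeq annotates in GRCm38.p6. Armh4 lies at chr14:49783334-49783633 and Slc35f4 at chr14:49525788-49526087, both on the minus strand. Capitals mark matches to the 6 short motifs that were searched on both strands.
Armh4: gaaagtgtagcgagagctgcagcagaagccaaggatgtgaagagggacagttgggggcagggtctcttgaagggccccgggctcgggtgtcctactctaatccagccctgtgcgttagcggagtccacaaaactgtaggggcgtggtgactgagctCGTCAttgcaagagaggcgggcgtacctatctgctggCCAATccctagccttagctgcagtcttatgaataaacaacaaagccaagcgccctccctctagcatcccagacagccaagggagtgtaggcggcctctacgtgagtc
Slc35f4: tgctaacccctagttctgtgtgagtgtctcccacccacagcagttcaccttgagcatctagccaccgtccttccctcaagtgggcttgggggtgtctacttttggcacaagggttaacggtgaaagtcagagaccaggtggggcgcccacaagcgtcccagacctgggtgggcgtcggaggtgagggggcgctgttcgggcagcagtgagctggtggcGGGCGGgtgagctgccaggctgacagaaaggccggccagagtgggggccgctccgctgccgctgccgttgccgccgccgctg
The motifs were the CCAAT box (CCAAT), the TATA box (TATAAA), the GC box (GGGCGG), the E-box (CACGTG), the core of the cAMP response element (TGACG) and the site of EGR factors (the letters GCGTGGGCG). None of them overlapped another in these windows. The Armh4 window holds a CCAAT box at position -57 from the start and a cAMP response core at -94, the latter on the opposite strand. CCAAT occurs in 37.4% and TGACG in 20.8% of 32851 mouse promoter windows of this length. The Slc35f4 window holds a GC box at -32, a motif found in 35.7% of the windows. TATAAA (13.6% of windows), CACGTG (7.15%) and the EGR site (0.612%) did not match in either gene. GC content was 57.3% for Armh4 and 65.3% for Slc35f4, beside a median of 52.7% over all windows. The windows share none of the matched motifs.

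The tissue labels and the targeted gene were checked first. All 8 markers of hippocampal neurons, such as Neurod6 and C1ql2, were higher in every hippocampal array than in every bulb array, by 0.62 to 4.04 on the log2 scale. All 8 markers of bulb neurons, such as Eomes and Doc2g, were higher in every bulb array, with hippocampus minus bulb between -4.56 and -2.14. Rasgrf2 read 9.32, 9.14 and 9.18 in wild-type and 8.64, 8.76 and 8.49 in knockout hippocampus, a difference of -0.58 (SE 0.077, limma adjusted p = 0.00197) and differed by -0.14 in bulb (SE 0.077, adjusted p = 0.532). In bulb, too, every knockout array lay under every wild-type array, but the genotypes were apart there in 17.1% of all genes. Signal thus remained in the knockout arrays, and whether the probe set reads the deleted exons is not known. The gene lies on chromosome 13, not on chromosome 14 or 12, where the listed genes lie. Array medians lay between 6.82 and 6.89 in hippocampus and between 6.93 and 6.96 in bulb.

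Armh4 read lower in knockout hippocampus and higher in knockout olfactory bulb. In hippocampus its log2 intensity was 9.11, 8.79 and 9.003 in wild-type replicates 1, 2 and 3, and 8.38, 8.47 and 8.42 in knockout replicates 4, 5 and 6. Every knockout value lay under every wild-type value there, and the wild-type arrays were spread more widely (SD 0.16) than the knockout arrays (SD 0.046). In bulb the wild-type arrays read 8.60, 8.59 and 8.46, and the knockout arrays 9.08, 8.87 and 9.06. Here every knockout value lay above every wild-type value. In these whole-tissue samples, fewer cells that make a transcript and less transcript per cell cannot be told apart.

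The group means of Armh4 were 8.97 ± 0.16 (SD, n = 3) in wild-type and 8.42 ± 0.046 in knockout hippocampus, a difference of -0.54 (SE 0.087), or 1.46-fold. In bulb they were 8.55 ± 0.074 in wild type and 9.002 ± 0.12 in knockout, a difference of 0.45 (SE 0.087), or 1.37-fold. In the order of the 4 groups, knockout hippocampus and wild-type bulb stood lowest and their ranges overlapped. Wild-type hippocampus and knockout bulb stood highest, and their ranges overlapped too. The ordering of the tissues was therefore opposite in the genotypes, hippocampus over bulb in wild type and bulb over hippocampus in knockout. Groups that do not overlap in either tissue, with opposite directions, were seen in 178 of 19938 genes (0.893%), Armh4 among them by its choice. Its difference of effects, hippocampus minus bulb, was -0.997 (SE 0.123) and ranked 5 by size among all genes. These values picked the gene and are given as a description.

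Slc35f4 read higher in knockout hippocampus and was close to wild type in bulb. In hippocampus it stood at 6.93, 7.02 and 7.02 in the wild-type arrays, and at 7.70, 7.78 and 7.46 in knockout replicates 4, 5 and 6. All 3 knockout values lay above the wild-type values, with knockout replicate 6 the lowest of them. The genotypes were apart in hippocampus in 13.1% of all genes, in either direction. The wild-type hippocampal values were also the nearest to the array medians. In bulb the wild-type arrays read 8.72, 8.79 and 8.78 and the knockout arrays 8.86, 8.59 and 8.67. The bulb groups overlapped, knockout replicate 4 being the highest and replicates 5 and 6 the lowest of the 6 arrays.

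The group means of Slc35f4 were 6.99 ± 0.050 (SD, n = 3) in wild-type and 7.65 ± 0.17 in knockout hippocampus, a difference of 0.66 (SE 0.089), or 1.58-fold. In bulb the means were 8.76 ± 0.036 in wild type and 8.71 ± 0.14 in knockout, a difference of -0.058 (SE 0.089). From the lowest level up, wild-type hippocampus came first, then knockout hippocampus, then the bulb groups, which could not be ordered. By size the hippocampal difference ranked 25 of 19938 genes. The difference of effects, hippocampus minus bulb, was 0.72 (SE 0.126).

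**Figure D1:**
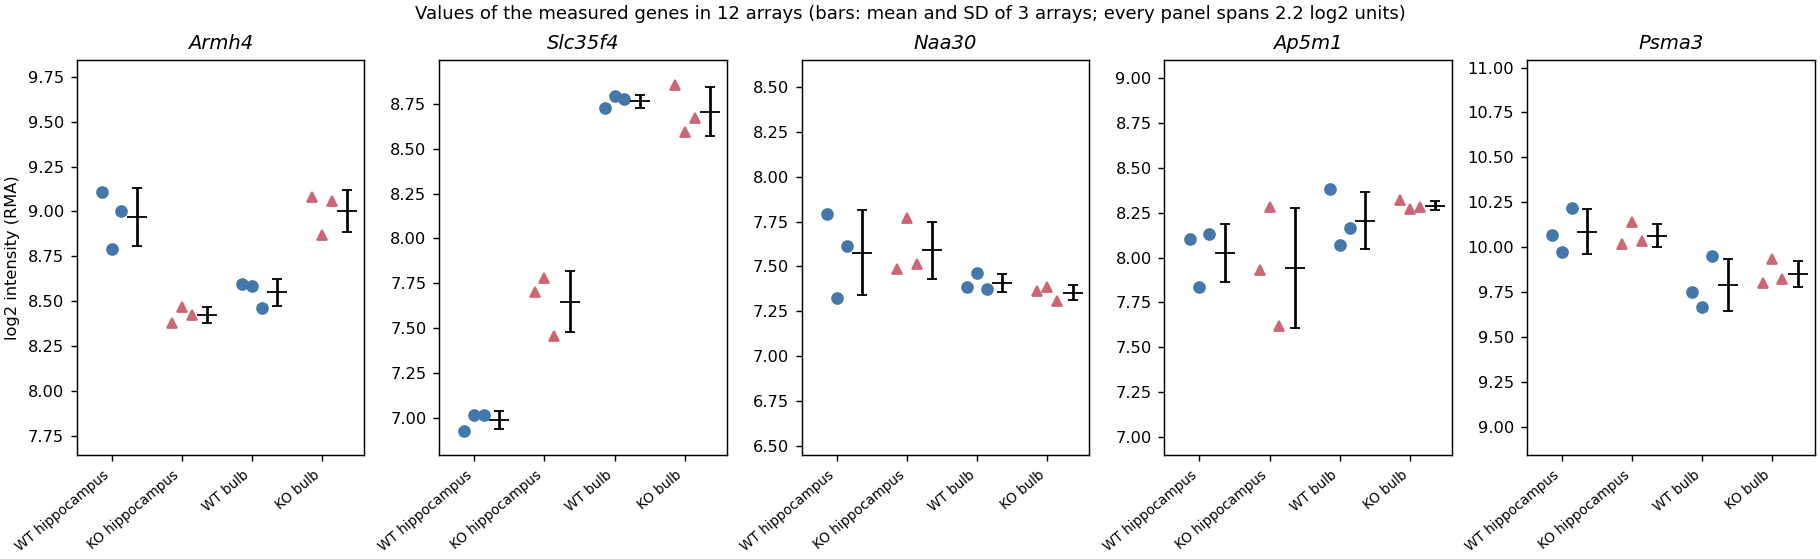
Log2 intensity (RMA) of each measured gene in the 12 arrays, by genotype (WT, wild type; KO, knockout) and tissue; points are arrays, bars the mean and SD of 3, and every panel spans the same number of log2 units. Armh4 means go from 8.97 to 8.42 in hippocampus and from 8.55 to 9.002 in bulb, Slc35f4 goes from 6.99 to 7.65 in hippocampus alone, and the genotypes overlap in both tissues for Naa30, Ap5m1 and Psma3.

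The other measured genes did not differ between the genotypes past the test in either tissue. Naa30 read 7.79, 7.32 and 7.61 in wild-type and 7.48, 7.77 and 7.51 in knockout hippocampus, and 7.39, 7.47 and 7.38 in wild-type and 7.37, 7.39 and 7.31 in knockout bulb. The genotypes overlapped in both tissues, and the hippocampal arrays were spread more widely than those of the bulb. Its knockout difference was 0.014 in hippocampus (SE 0.105, limma adjusted p = 0.978) and -0.055 in bulb (SE 0.105, adjusted p = 0.873).

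Ap5m1, the other gene on that side of Slc35f4, read 8.10, 7.84 and 8.13 in wild-type hippocampus and 7.93, 8.28 and 7.62 in knockout hippocampus. The knockout replicates 5 and 6 were the highest and the lowest of these 6 arrays. In bulb it read 8.38, 8.07 and 8.17 in wild type and 8.32, 8.27 and 8.28 in knockout. The differences were -0.082 (SE 0.135, limma adjusted p = 0.869) in hippocampus and 0.084 (SE 0.135, adjusted p = 0.849) in bulb. Without knockout hippocampal replicate 6 the hippocampal value was 0.080, with the opposite sign.

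Psma3 is represented by 3 probe sets annotated with the same accessions, and whether each reads the gene or a near-identical copy was not tested. The brightest read 10.07, 9.97 and 10.22 in wild-type and 10.02, 10.14 and 10.03 in knockout hippocampus. In bulb it read 9.75, 9.66 and 9.95 in wild type and 9.80, 9.93 and 9.82 in knockout. The genotypes overlapped in both tissues. The Psma3 differences were -0.021 (SE 0.086, limma adjusted p = 0.953) in hippocampus and 0.062 (SE 0.086, adjusted p = 0.822) in bulb. Over the 3 probe sets they ran from -0.021 to 0.040 in hippocampus and from 0.037 to 0.092 in bulb, and none passed.

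Of these 3 genes, then, 0 passed limma's adjusted p of 0.05 in hippocampus, where 0.256% of all genes did, and 0 in bulb, where 0.411% did. At an unadjusted p under 0.05 the counts were also 0 and 0, beside 8.91% of all genes in hippocampus and 11.3% in bulb. The genotypes were apart in 0 of 3 in hippocampus and 0 of 3 in bulb, beside 13.1% and 17.1% of all genes. The test of a knockout effect that differs between the tissues, which 0.0150% of genes passed, gave a difference of 0.069 for Naa30 (SE 0.149, adjusted p = 0.879), -0.17 for Ap5m1 (SE 0.19, adjusted p = 0.759) and -0.083 for Psma3 (SE 0.122, adjusted p = 0.819). A p above the threshold does not show equal levels. With these standard errors, differences as large as those of Armh4 and Slc35f4 would have been several standard errors from 0, which need not pass. Klhl33, a flanking gene described below, differed by -0.31 in hippocampus (SE 0.070) without passing (limma adjusted p = 0.119). A difference of that size can thus fail the test. Which sizes remain possible in Naa30, Ap5m1 and Psma3 is better read from each gene's own difference and standard error. The standard error was widest for Ap5m1 (0.135).

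The comparison of the tissues, averaged over the genotypes, does not use the knockout differences that picked Armh4 and Slc35f4, so all 5 genes could be tested. In this comparison 4 of the 5 passed a limma adjusted p of 0.05, and 48.5% of all genes did, so passing it sets a gene apart from few others. Slc35f4 was lower in hippocampus by a log2 difference of -1.42 (SE 0.063, adjusted p = 4.12e-11), or 2.67-fold, and all 6 hippocampal arrays lay under all 6 bulb arrays. In size this difference ranked 439 of 19938. Psma3 was higher in hippocampus by 0.26 (SE 0.061, adjusted p = 0.00256), again with no overlap of the tissues. The tissues were apart in 32.1% of all genes. Naa30 was higher in hippocampus by 0.20 (SE 0.074, adjusted p = 0.035) and Ap5m1 lower, with -0.26 (SE 0.095, adjusted p = 0.0314), both with overlapping arrays. The Naa30 call was lost without any 1 of 7 arrays and the Ap5m1 call without any 1 of 5, with adjusted p up to 0.0991 and 0.0839. Armh4 differed by -0.081 (SE 0.061, adjusted p = 0.31), a value whose sign turned (0.011) once each array was centred on its median. The Ap5m1 call was also lost with that centring (-0.17, adjusted p = 0.156).

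The tissue difference was then read within animals, joined by the code that the labels give each one. For wild-type animals 1 and 2 the titles pair the tissues differently, so their single values depend on this choice. For Armh4, hippocampus minus bulb was 0.52, 0.19 and 0.54 in the wild-type animals of hippocampal replicates 1, 2 and 3, and -0.70, -0.40 and -0.64 in knockout animals 4, 5 and 6. The sign was positive in 3 of 3 wild-type and negative in 3 of 3 knockout animals. For Slc35f4 it was -1.86, -1.71 and -1.76 in wild type and -1.15, -0.81 and -1.22 in knockout. All 6 animals had the lower value in hippocampus, by 3.43-fold on average in wild type and 2.09-fold in knockout. For Psma3 the value was positive in all 6 animals, from 0.21 to 0.40. For Naa30 it ran from -0.06 to 0.38 and for Ap5m1 from -0.66 to 0.03, and the genotypes overlapped in both genes.

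**Figure D2:**
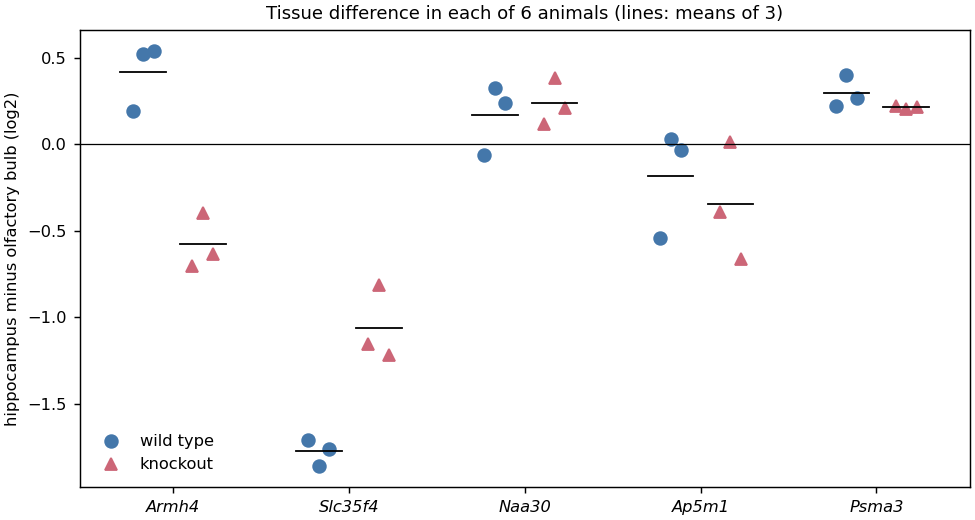
Hippocampus minus olfactory bulb (log2) in each of the 6 animals for the 5 measured genes; circles are wild-type and triangles knockout animals, lines the means of 3. Armh4 lies above 0 in wild type and below 0 in knockout, Slc35f4 lies below 0 in both with means of -1.78 and -1.06, and the genotypes lie together for Naa30 and Ap5m1.

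Genes flanking the listed ones on chromosome 14 were also compared between the genotypes. The 20 nearest measured genes on each side were taken in the order of their starts, without chemoreceptor genes and genes with clone or predicted names. Between Armh4 and the next gene kept, Ttc5, lie 25 measured chemoreceptor genes, which were left out, so the stretch directly beside Armh4 was not read. On the Ap5m1 side, from Exoc5 to Ddhd1, 0 of 20 genes passed limma's adjusted p of 0.05 in hippocampus and 0 of 20 in bulb, beside 0.256% and 0.411% of all genes. At an unadjusted p under 0.05 there were 3 and 1, beside 8.91% and 11.3% of all genes. Differences there ran from -0.27 (Socs4) to 0.24 (Cdkn3) in hippocampus and from -0.48 (Bmp4) to 0.10 (Cgrrf1) in bulb. The gene between Naa30 and Slc35f4, ccdc198, differed by 0.10 in hippocampus (adjusted p = 0.733) and by -0.14 in bulb (adjusted p = 0.543). The nearest genes of Slc35f4 on that side, ccdc198 and Naa30, thus did not pass in either tissue.

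On the Armh4 side 1 of 20 genes passed in hippocampus and 3 of 20 in bulb, beside the same 0.256% and 0.411% of all genes, and the genes that passed were lower in knockout. At an unadjusted p under 0.05 there were 6 and 4, beside 8.91% and 11.3%. Differences on that side ran from -0.88 (Ccnb1ip1) to 0.39 (Rnase6, limma adjusted p = 0.297) in hippocampus, where 14 of 20 lay above 0, and from -0.65 (Klhl33) to 0.18 (Pnp) in bulb, where 4 of 20 did. Over all genes 12569 of 19938 lay above 0 in hippocampus and 8869 in bulb. Osgep, named for its value next to the threshold, differed by 0.38 in hippocampus (limma adjusted p = 0.0529), with every knockout array above every wild-type array. Such a gap between the genotypes, in either direction, was seen in 13.1% of all genes there. Ccnb1ip1, which encodes HEI10, a protein needed for crossing over in germ cells, read 5.89, 6.36 and 5.98 in wild-type and 5.04, 5.22 and 5.34 in knockout hippocampus. It fell by 0.88 (SE 0.111, limma adjusted p = 0.00138). In bulb it fell by 0.56 (SE 0.111, adjusted p = 0.044), a call lost when any single bulb array was left out (adjusted p 0.0727 to 0.163) and with every probe set tested (adjusted p = 0.119). All of its values lay below the array medians. Klhl33, a gene of the kelch family, read 6.17, 6.23 and 6.11 in wild-type and 5.42, 5.53 and 5.62 in knockout bulb. It fell by 0.65 there (SE 0.070, adjusted p = 0.000279) and differed by -0.31 in hippocampus (adjusted p = 0.119). As with Ccnb1ip1, all values of Klhl33 lay below the array medians. Parp2, a DNA repair enzyme gene, read 8.39, 8.22 and 8.25 in wild-type bulb and between 7.96 and 7.97 in the knockout arrays. It fell by 0.33 (SE 0.065, adjusted p = 0.0443), a call that was likewise lost without any single bulb array (adjusted p 0.0605 to 0.189), with the arrays centred (0.0556), with every probe set tested (0.0634) and with the bulb arrays alone (0.163). It differed by -0.0091 in hippocampus (adjusted p = 0.976). Over all 40 flanking genes the median difference was 0.04 in hippocampus and -0.05 in bulb, beside 0.03 and -0.02 over all genes. Ttc5, the next gene kept after Armh4, differed by 0.012 in hippocampus and -0.048 in bulb, and neither value passed (adjusted p = 0.982 and 0.911).

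**Figure D3:**
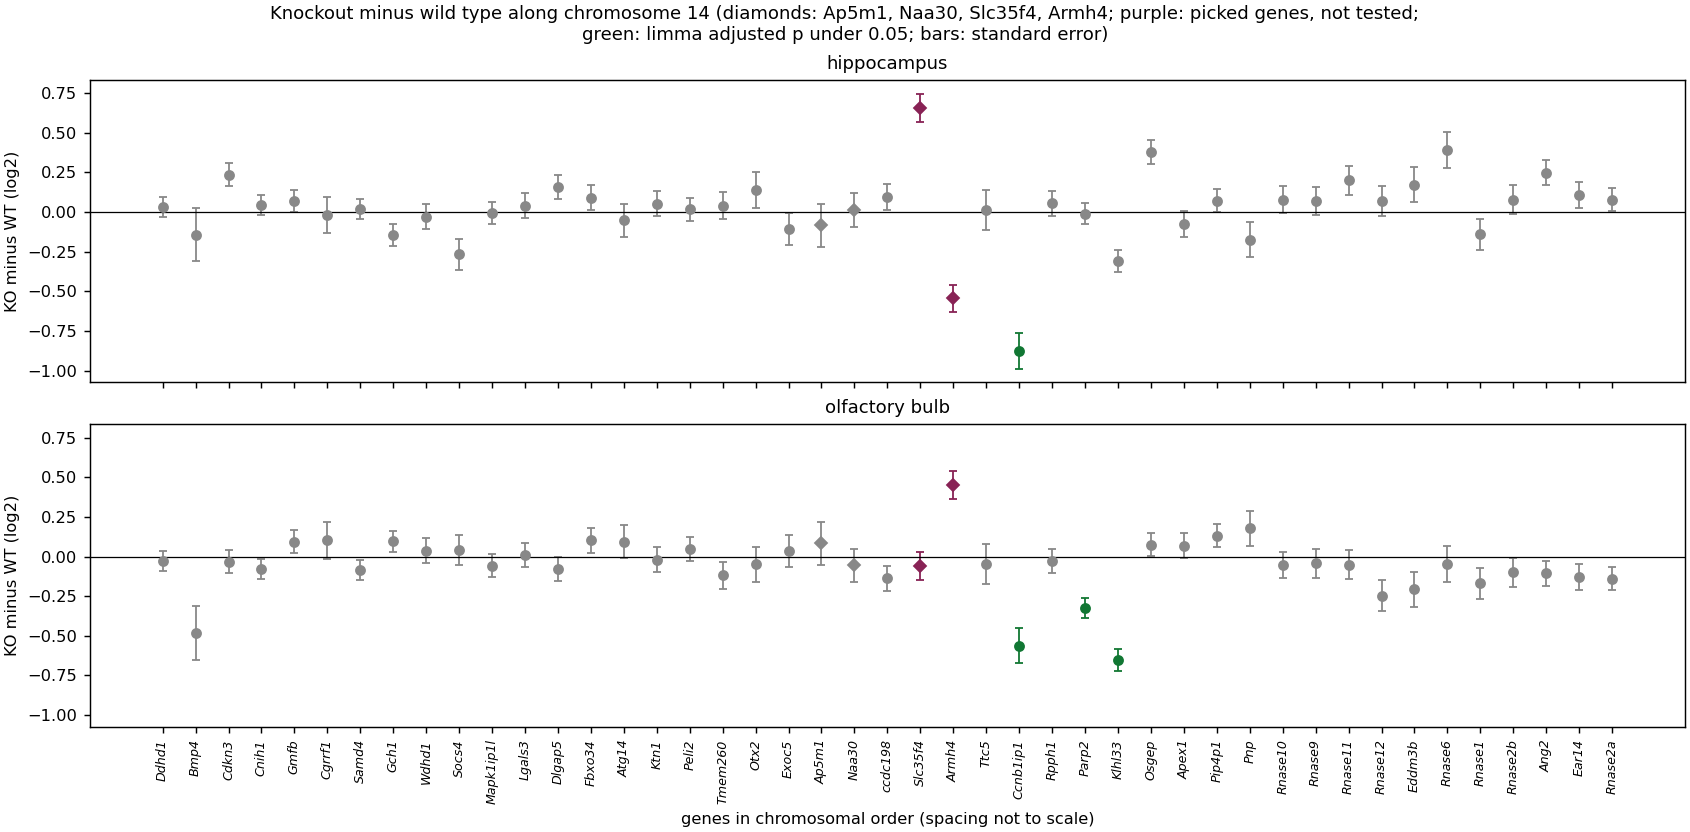
Knockout minus wild type (log2) for 45 genes in their order along chromosome 14, hippocampus above and olfactory bulb below; bars are standard errors, diamonds the listed genes, purple the genes picked for their values and green the genes past a limma adjusted p of 0.05. Slc35f4 (0.66) and Armh4 (-0.54) stand next to each other with opposite signs in hippocampus, Armh4 (0.45) stands alone of the pair in bulb, and the called genes lie on the Armh4 side.

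Relatives and partners of the encoded proteins were read next. Across the lists, 54 genes were measured apart from Slc35f4. Of these, 0 passed limma's adjusted p of 0.05 in hippocampus (2 at an unadjusted p under 0.05) and 2 in bulb (12 unadjusted). The shares over all genes were 0.256% and 0.411% adjusted, and 8.91% and 11.3% unadjusted. The other 5 genes of the SLC35F family, Slc35f1, Slc35f2, Slc35f3, Slc35f5 and Slc35f6, differed by -0.07 to 0.11 in hippocampus and by -0.15 to 0.06 in bulb, with adjusted p of at least 0.665 and 0.485. Slc35f4 stood at 0.66 in hippocampus. The 9 genes of mTORC2 and of the gp130 pathway, which hold the reported partners of ARMH4, had a median difference of 0.04 in hippocampus and 0.01 in bulb, and none passed. Rictor, the subunit that defines mTORC2, differed by -0.06 and 0.05, and Il6st, which encodes gp130, by -0.13 and -0.07.

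Of the 3 genes of the NatC complex none passed. Naa35, its auxiliary subunit, differed by -0.020 in hippocampus and 0.040 in bulb, and Naa38 by 0.0015 and 0.092. None of the 7 measured genes of other N-terminal acetyltransferases passed either, with bulb values from -0.23 (Naa60) to 0.32 (Naa16). Of 6 genes of AP-5 and its partners, Zfyve26, which encodes spastizin, a protein that binds AP-5, passed in bulb. It read 8.29, 8.52 and 8.35 in wild-type and 8.74, 8.74 and 8.80 in knockout bulb, and rose by 0.37 (SE 0.072, limma adjusted p = 0.0405). This call held in 5 of 12 alternatives and was lost without knockout bulb replicates 4, 5 or 6 or wild-type bulb replicates 1 or 3 (adjusted p 0.0861 to 0.193), with every probe set tested (0.0703) and with the bulb arrays alone (0.132). In hippocampus Zfyve26 differed by 0.35 (adjusted p = 0.0755).

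Of 10 measured dynactin genes, Dctn5, a subunit of the end of the complex where ACTR10 also sits, passed in bulb. It read 9.69, 9.84 and 9.80 in wild-type and 10.29, 10.10 and 10.13 in knockout bulb, and rose by 0.39 (SE 0.070, limma adjusted p = 0.0238). The call was lost without knockout bulb replicate 4 or 6 or wild-type bulb replicate 1 (adjusted p 0.0693 to 0.109), and with the bulb arrays alone (adjusted p = 0.121). In hippocampus Dctn5 differed by 0.12 (adjusted p = 0.62). Of the 14 genes of the 20S proteasome, 0 passed in hippocampus and 0 in bulb (0 and 4 at an unadjusted p under 0.05, beside 8.91% and 11.3% of all genes). Their median difference was 0.07 in hippocampus and 0.12 in bulb, beside 0.03 and -0.02 over all genes. In hippocampus 12 of 14 lay above 0, beside 12569 of 19938 genes, and in bulb 13 of 14, beside 8869 of 19938. The bulb values ran from -0.12 (Psmb5) to 0.35 (Psma6), and Psma3, at 0.062, lay below the bulb median.

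**Figure D4:**
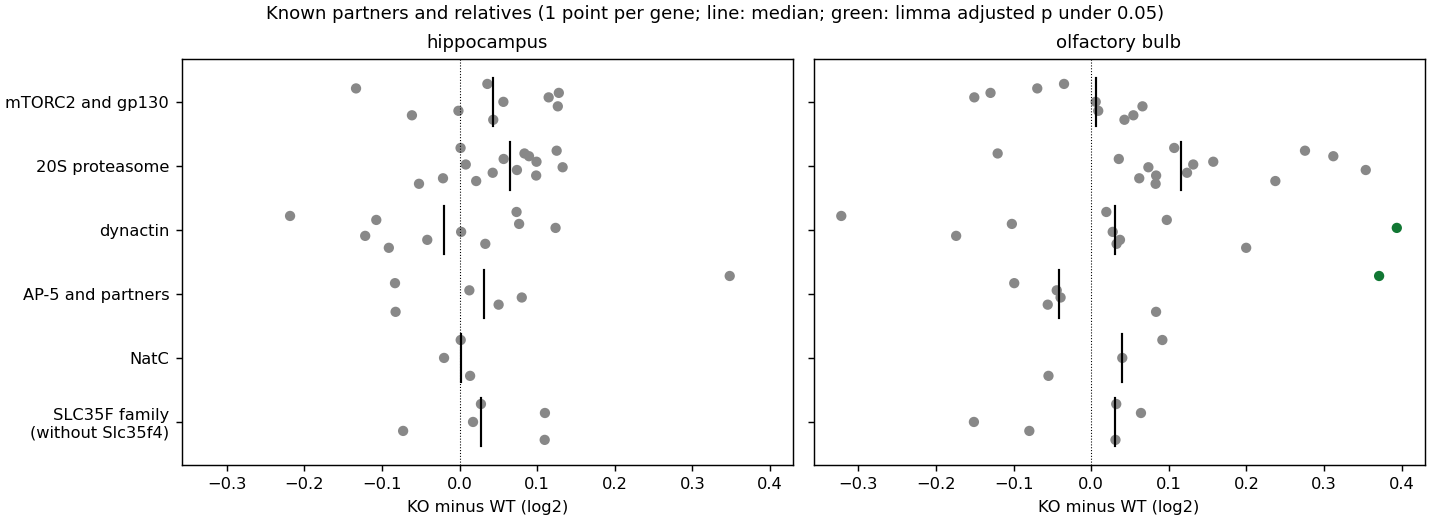
Knockout minus wild type (log2) of each gene of 6 lists of relatives and partners, hippocampus left and olfactory bulb right; 1 point is 1 gene, lines are list medians and green marks a limma adjusted p under 0.05. Most genes lie near 0, and the green points, both in bulb, are Dctn5 (0.39) and Zfyve26 (0.37).

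The genes whose pattern was most like that of Armh4 and of Slc35f4 were sought among all genes, by the root mean square difference of log2 values over the 12 arrays after each gene was centred within each tissue. For Armh4 they were Mir151 (0.14), Olfr111 (0.15) and Rnd3 (0.15), on chromosomes 15, 17 and 2. A flat gene would be at 0.27 from Armh4, and the median of all genes was 0.29. For Slc35f4 they were Hunk (0.11), a kinase gene, Erich5 (0.12) and Cbln1 (0.13), a secreted synapse organiser, on chromosomes 16, 15 and 8. A flat gene would be at 0.25 from Slc35f4. Hunk differed by 0.67 in hippocampus and 0.11 in bulb, Erich5 by 0.60 and -0.20, and Cbln1 by 0.46 and -0.0015. Mir151 differed by -0.31 in hippocampus and 0.35 in bulb, Olfr111 by -0.47 and 0.26, and Rnd3 by -0.36 and 0.18. Opposite signs in the tissues, as in Armh4, were thus present in the genes sought for their likeness to it. None of these 6 genes lies on chromosome 14, but the share of all genes there was not counted, so no result is drawn from this.

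Marker lists of other cell types were read beside these results. In hippocampus all 5 measured oligodendrocyte markers lay above 0, with a median of 0.28 and none past the test. Their mean level there was 9.42 to 9.82 in knockout and 9.34 to 9.49 in wild-type arrays, so the genotypes overlapped. In bulb 4 of these 5 markers lay below 0, with a median of -0.07 and none past the test. The 8 bulb neuron markers, which read far lower in hippocampus, had a mean level there of 6.99 to 7.01 in knockout and 6.83 to 6.94 in wild-type arrays, with 6 of 8 above 0 and none past the test. In bulb their mean level was 10.60 to 10.70 in knockout and 10.43 to 10.49 in wild type, with 6 of 8 above 0, and Dlx5 (0.84, limma adjusted p = 0.00117) passed. The other bulb neuron markers ran from -0.038 (Meis2) to 0.36 (Eomes) in bulb, and the median of the list was 0.067. Of all 19938 genes, 12569 lay above 0 in hippocampus and 8869 in bulb. The 8 hippocampal neuron markers had a mean level of 8.78 to 8.97 in knockout and 8.91 to 8.99 in wild-type hippocampus. Medians of the other lists (astrocytes, microglia, endothelium, choroid plexus and meninges) lay between -0.21 and 0.02 in hippocampus and between -0.21 and -0.01 in bulb, with none past the test. The part of these cell types in the values of Armh4 and Slc35f4 was not tested.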

How the data were processed

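Total RNA was extracted with Trizol, fragmented, labelled with biotin and hybridised to 1 array per sample, per the labels' protocols. The authors deposited log2 intensities for 35556 probe sets, made with RMA in the oligo package per the submitters' processing notes, with versions not given in the sources used here. RMA corrects background, normalizes arrays to each other by quantiles and compresses differences near background, and whether the tissues were normalized together is not given. Arrays carry no read depth. Of the probe sets, 21789 had 1 gene symbol in the platform annotation and 1621 had several, 21698 matched RefSeq's GRCm38.p6 table by identifier, and the brightest probe set stood for a gene, which left 19938 genes with no filter. The sources give no genome build, so RefSeq served for gene order and promoters only. Replicate arrays differed with an SD of 0.212 to 0.297 over probe sets, so no array was a copy.

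Groups came from the titles. Limma 3.58.1 in R 4.3.3 fitted the 4 group means over all 12 arrays (lmFit, eBayes), with Benjamini-Hochberg adjustment over all genes and a threshold of 0.05, and was tested on simulated data. Tissues of an animal were joined by its code; for wild-type animals 1 and 2 the title's number pairs them differently. Deviations from group means correlated between tissues with -0.255 to 0.116 by code and with -0.208 to 0.252 by the title's number. These values did not settle which pairing is right. The genes and lists were chosen with earlier results of these data known. Named were the measured genes, Rasgrf2, flanking and partner genes past the threshold or at the ends of their list, and the 3 genes nearest in pattern to Armh4 and to Slc35f4. Other settings tried were array centring, moderation, probe set choice, a filter on dim genes, every probe set, arrays of 1 tissue, the animal as a block and leaving out each array. Actr10 was not analysed here.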

Additional observations from a re-analysis of the deposited data

Results flagged for a closer look

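Armh4 was singled out because its knockout and wild-type arrays were apart in both tissues, in opposite directions. The knockout effect in hippocampus minus that in bulb was -0.997 on the log2 scale. This difference was not tested here, because it is the value the gene was picked for. Over all genes, groups apart in both tissues in opposite directions were seen in 178 of 19938 (0.893%), Armh4 among them by its choice. Only Armh4 was considered for flagging, and the other genes of this count are not described here. Groups of 3 arrays were not examined for single distant arrays.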

How the results depend on the processing

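The knockout differences of Armh4 and Slc35f4, for which they were picked, kept their sign in all 12 alternatives run for each tissue. Moderation, probe set choice, the filter on dim genes, every probe set and arrays of 1 tissue could not change these differences. Where the genotypes did not overlap, leaving out 1 array could not turn the sign either. The kept signs are therefore a description and no support for the differences. Armh4 ran from -0.63 to -0.47 in hippocampus and from 0.41 to 0.52 in bulb, and Slc35f4 from 0.59 to 0.75 in hippocampus and from -0.13 to -0.00042 in bulb. Of Naa30, Ap5m1 and Psma3, 0 passed in every alternative of the knockout comparisons. With the replicate block, by animal code or by the title's number, 4 of the 5 genes again passed between the tissues and 0 of 3 for the difference of effects, so no call of these genes changed. Over all genes the difference of effects then passed in 0 genes against 3. Between the tissues, 2 genes passed with every probe set tested, and 2 to 4 when single arrays were left out. Of the flanking genes, 1 passed in bulb with dim genes left out, namely Parp2 (limma adjusted p = 0.0163). Ccnb1ip1 and Klhl33 were themselves removed by that filter, so their calls were not retested there. In hippocampus 2 flanking genes passed with trend and robust moderation. Of the partner genes, trend and robust moderation called 4 in bulb and 1 in hippocampus, and leaving out dim genes called 1 in hippocampus. The causes of the other changes were not tested. Uncalled values near 0 changed sign. Centring the arrays gave 0.011 for Armh4 between the tissues and -0.022 for Naa30 in hippocampus. For Psma3 the mean of its probe sets gave 0.0047 in hippocampus, and the dimmest of them, an alternative chosen after seeing the data, 0.040 in hippocampus and 0.0025 for the difference of effects. Leaving out single arrays gave -0.11 to 0.12 for Naa30, -0.25 to 0.080 for Ap5m1, -0.079 to 0.045 for Psma3 and -0.030 to 0.0068 for Parp2 in hippocampus, -8.6e-06 to 0.14 for Psma3 in bulb, and -0.059 to 0.18 for the difference of effects of Naa30. Over all genes, 51 passed in hippocampus and 82 in bulb; the alternatives gave 28 to 125 and 35 to 136.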
